A study of Mus musculus with 8 samples.

Results

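The genes described here are 5 named genes of DNA repair and DNA precursor supply: the homologous recombination genes Brca1 and Brca2, the helicase Helq, the helicase and nuclease Dna2, and the ribonucleotide reductase subunit Rrm2b. They were chosen by gene name, with earlier results of these data known. They hold 6 of the 469 rows and 5 of the 417 gene names of the deposited table. RNA was sequenced from mature mouse oocytes, at metaphase II of meiosis, from ovaries of females aged 6 months. The 4 Ctrl libraries carry the labels L/L and genotype WT, and the 4 KO libraries carry the labels L/L cre and genotype KO. Both groups therefore share the L/L alleles, and the Cre recombinase is what the labels give as the difference. The targeted gene, the promoter that drives Cre and the number of oocytes and animals behind a library are not stated in the labels, so the knockout itself was not checked here. The design text asks which oocyte transcripts change when reactive oxygen species of the mitochondrial matrix are raised.

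Homologous recombination repairs broken DNA by copying the sister or homologous chromosome. Brca1 acts early, when the broken ends are cut back, and helps to recruit Brca2, which acts on the single strand that this leaves. Dna2 is one of the nucleases that cut the ends back, and it also works in mitochondria, while Helq unwinds DNA at stalled forks and takes part in the repair of crosslinks. Rrm2b replaces the cell cycle dependent small subunit of ribonucleotide reductase in resting cells, where it supplies deoxynucleotides for repair and for copying mitochondrial DNA. Mature oocytes make almost no new RNA, so the transcripts present are those stored during growth, and their tails of adenosines are lengthened or shortened in the cytoplasm during maturation.

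Smart-seq2, the method used here, primes cDNA from these tails, so the 3′ ends of the members are shown. In the longest protein-coding transcript with a complete 3′ end in GENCODE M21 (GRCm38), a polyadenylation hexamer (AATAAA or ATTAAA) was found in the last 50 bases of all 5 members. A cytoplasmic polyadenylation element, the letters TTTTAT or TTTTAAT that recruit the tail-lengthening machinery, was found in the last 150 bases of Brca2, Dna2 and Helq. These letters, searched on the RNA strand alone, were not in that window of Brca1 or Rrm2b. Over the 405 listed genes with such a transcript the hexamer was present in 80.2% and the element in 30.9%, against 72.9% and 21.6% of 21663 genes of the annotation. The 30-base windows below run 5′ to 3′ on the transcript's strand, with the hexamer and the element in capitals. A match is a description of the letters and not a measured site.
Brca1, chr11:101488764-101488793, minus strand: taatactgcaAATAAActaaatagcaaaca
Brca2, chr5:150569709-150569738, plus strand: TTTTATatacaaAATAAAcatagctttgct
Helq, chr5:100762158-100762187, minus strand: TTTTAATtatacATTAAAagctgtggatga
Dna2, chr10:62974138-62974167, plus strand: TTTTATtatttaatgtacagttgAATAAAt
Rrm2b, chr15:37923952-37923981, minus strand: gacttttaaAATAAAgtttactgaAATAAA

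Values are TPM, which scale each library to one fixed total. They correct for transcript length and give a transcript's share of each library. A lower TPM in a library can come from less transcript per oocyte or, where cells were pooled, from fewer cells that hold it. It can also come from other transcripts taking a larger share, and these cannot be told apart. The smallest fold between the group means over all rows was 2.04, so the table holds rows that already differ, and a call among its genes gives no independent evidence. Of 402 genes tested with limma on log2(TPM + 1), 93.8% passed the adjusted p threshold of 0.05, 36.6% as higher and 57.2% as lower in KO, and the groups did not overlap in 56.5%. The difference KO minus Ctrl in log2(TPM + 1) is called the log2 difference here. Its median over these genes was -1.05, and it moved to -0.35 under median-of-ratios scaling, under which 145 genes were higher and 52 lower in place of 147 and 230. KO library 2 stood apart across the table: it was the lowest KO library, or tied for it, in 60.9% of the genes called lower and the highest in 72.1% of those called higher. Ctrl library 4 was the highest Ctrl library in 55.7% of the genes called lower. Between 25 and 61 of the 469 rows were listed at 0 in a library, the most in KO library 2. None of the 16 oocyte markers, 14 cumulus and granulosa cell markers or 16 stromal, endothelial, blood and immune markers had a row, so the labelled cell type was not checked here. Nothing in the labels ties the libraries to separate animals. The p-values therefore measure the spread between libraries, part of which may be technical.

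All 5 members passed the limma threshold, 3 as lower and 2 as higher in KO, beside the 93.8% of all genes tested. Helq, Rrm2b and Brca1 fell, and Brca2 and Dna2 rose. The groups did not overlap for Helq and Brca2, beside 56.5% of all genes tested, and they did overlap for Brca1, Rrm2b and Dna2. Brca2 and Dna2 reached the filter, an 8-library mean of 1 TPM or more, through the KO libraries alone, and all 5 members passed it.

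**Figure D1:**
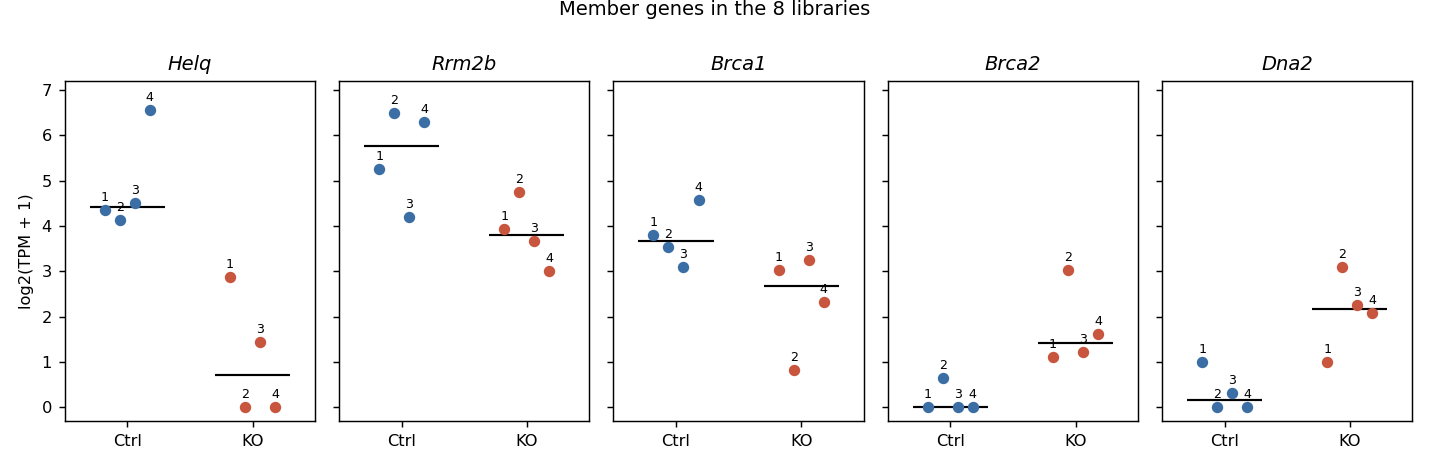
Each panel shows 1 member, with log2(TPM + 1) on the vertical axis and the 8 libraries as points numbered by replicate; the line is the group median. Helq has a Ctrl range of 16.5 to 94.0 TPM and a KO range of 0 to 6.29 TPM; all KO points of Brca2 lie above its Ctrl points, and for Dna2 KO replicate 1 meets Ctrl replicate 1 at 1.01 TPM.

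Helq (ENSMUSG00000035266.16, chromosome 5, 100762145 to 100798598, minus strand, GRCm38) stood at 19.3, 16.5, 21.7 and 94.0 TPM in Ctrl libraries 1 to 4. In KO libraries 1 to 4 it stood at 6.29, 0, 1.72 and 0 TPM. Each KO library was below each Ctrl library, with KO library 1 the highest of the KO group and Ctrl library 4 far above the rest of the Ctrl group. The log2 difference was -3.81 (SE 0.69, adjusted p = 0.00217 by limma), which ranked 2 among the falls of the 402 genes and lay 2.76 below their median. Without Ctrl library 4 it was -3.25 (adjusted p = 0.00896 by limma), and without Ctrl library 4 and KO library 2 together it was -2.89 (adjusted p = 0.00931). With a pseudocount of 5 the fall was -2.38, so its size depends on the pseudocount. The start of Helq lies 29 bases from that of Mrps18c, a mitochondrial ribosomal protein gene on the other strand that has no row in the table.

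Dna2 (ENSMUSG00000036875.15, chromosome 10, 62947026 to 62974185, plus strand) moved the other way. It stood at 1.01, 0, 0.244 and 2.37e-05 TPM in Ctrl libraries 1 to 4 and at 1.01, 7.61, 3.75 and 3.20 TPM in KO libraries 1 to 4. KO libraries 2, 3 and 4 were above each Ctrl library, while KO library 1 and Ctrl library 1 were equal after rounding. The log2 difference was 1.78 (SE 0.46, adjusted p = 0.0103 by limma), and 1.45 without KO library 2 (adjusted p = 0.0202). In Ctrl the gene was at or near the bottom of what the table lists, and with pseudocounts of 0.1 and 5 the rise was 3.70 and 0.70. Helq and Dna2, both able to unwind DNA, thus went in opposite directions. The ratio of Dna2 to Helq within a library, which is free of scaling between libraries, was 0.0522, 0, 0.0113 and 2.52e-07 in the Ctrl libraries and 0.161 and 2.19 in KO libraries 1 and 3. In KO libraries 2 and 4 Helq was listed at 0 and no ratio can be given. Dna2 reached the filter through the KO libraries alone and the listed rows already differ, so this ratio gives no independent evidence.

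Brca1 (ENSMUSG00000017146.12, chromosome 11, 101488764 to 101551955, minus strand) stood at 12.9, 10.5, 7.60 and 22.8 TPM in Ctrl libraries 1 to 4 and at 7.11, 0.775, 8.46 and 3.98 TPM in KO libraries 1 to 4. KO library 3 was above Ctrl library 3, and KO library 2 was the lowest of all 8. The Ctrl mean was 13.5 ± 6.60 TPM (SD, n = 4) and the KO mean 5.08 ± 3.43 TPM (SD, n = 4), with a log2 difference of -1.40 (SE 0.56, adjusted p = 0.0314 by limma). That is 0.35 below the median of all genes tested, the smallest distance among the members. The call was lost without Ctrl library 1 (adjusted p = 0.0523 by limma), Ctrl library 2 (0.0585) or Ctrl library 4 (0.0949), without KO library 2 (log2 difference -0.89, adjusted p = 0.0961) or KO library 4 (0.0578), with median-of-ratios scaling (0.207) and with quantile normalization (0.099). Helq passed in each of these settings.

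Brca2 (ENSMUSG00000041147.10, chromosome 5, 150522630 to 150570329, plus strand) was listed at 0 in Ctrl libraries 1, 3 and 4 and at 0.565 TPM in Ctrl library 2. In KO libraries 1 to 4 it stood at 1.15, 7.17, 1.33 and 2.06 TPM. Each KO library was above each Ctrl library, and KO library 2 held 58.4% of the gene's sum over the 8 libraries. The log2 difference was 1.58 (SE 0.42, adjusted p = 0.0117 by limma). Without KO library 2 the rise was 1.15 (adjusted p = 0.0166), and without Ctrl library 4 and KO library 2 together 1.10 (adjusted p = 0.0356). With pseudocounts of 0.1 and 5 it was 3.84 and 0.57. An antisense gene (Gm42529) and a sense intronic gene (Gm42531) lie within Brca2, and neither has a row. The exons of Brca2 and of the antisense gene share 41 bases, and reads within them cannot be assigned without strand.

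The partners of the recombination pathway thus differed in direction. The ratio of Brca2 to Brca1 was 0 in Ctrl libraries 1, 3 and 4 and 0.0536 in Ctrl library 2. In KO it was 0.162, 9.25, 0.158 and 0.516 in libraries 1 to 4, so each KO library had a higher ratio than each Ctrl library. Brca2 reached the filter through the KO libraries alone and the listed rows already differ, so this separation gives no independent evidence. In KO library 2 alone Brca2 was listed above Brca1. KO library 2 had the lowest Brca1 and the highest Brca2 of its group, as it was the lowest or highest KO library for most genes of the table, and the part of this library's deviation in both results was not tested beyond leaving it out.

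Rrm2b (ENSMUSG00000022292.16, chromosome 15, 37923952 to 37961318, minus strand) has 2 rows, which were summed. The sum was 37.2, 88.7, 17.3 and 77.5 TPM in Ctrl libraries 1 to 4 and 14.4, 25.7, 11.6 and 6.99 TPM in KO libraries 1 to 4. KO library 2 was above Ctrl library 3, the lowest of its group, and the other KO libraries were below each Ctrl library. The Ctrl mean was 55.2 ± 33.6 TPM (SD, n = 4) and the KO mean 14.7 ± 7.97 TPM (SD, n = 4), with a log2 difference of -1.72 (SE 0.52, adjusted p = 0.0147 by limma). The call held without any 1 library (adjusted p from 0.0053 to 0.0446) and did not hold with median-of-ratios scaling (log2 difference -0.94, adjusted p = 0.143).

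The 2 rows of Rrm2b both fell. Row 1 stood at 17.1, 35.5, 3.45 and 29.98 TPM in Ctrl libraries 1 to 4 and at 4.27, 1.26, 2.28 and 0.831 TPM in KO libraries 1 to 4. Row 2 stood at 20.1, 53.2, 13.8 and 47.6 TPM in Ctrl and at 10.1, 24.5, 9.37 and 6.16 TPM in KO. Fitted as rows, the log2 difference was -2.58 (SE 0.63, adjusted p = 0.008 by limma) for row 1 and -1.32 (SE 0.51, adjusted p = 0.0293) for row 2, and the difference between the rows was not tested. Row 1 made up 45.9%, 40.05%, 19.97% and 38.7% of the sum in Ctrl libraries 1 to 4 and 29.7%, 4.88%, 19.6% and 11.9% in KO libraries 1 to 4. Ctrl library 3, at 19.97%, thus lay within the KO range of this share. The rows carry no transcript identifier, and GENCODE M21 lists 9 Rrm2b transcripts, 5 of them protein coding, so which transcripts the rows stand for is not known. Another annotated gene, Gm8616, matches Rrm2b at 96.1% over 1051 bases. The exons of Rrm2b and of the antisense gene Gm49085 share 734 bases, so reads could be split between Rrm2b and either of them.

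**Figure D2:**
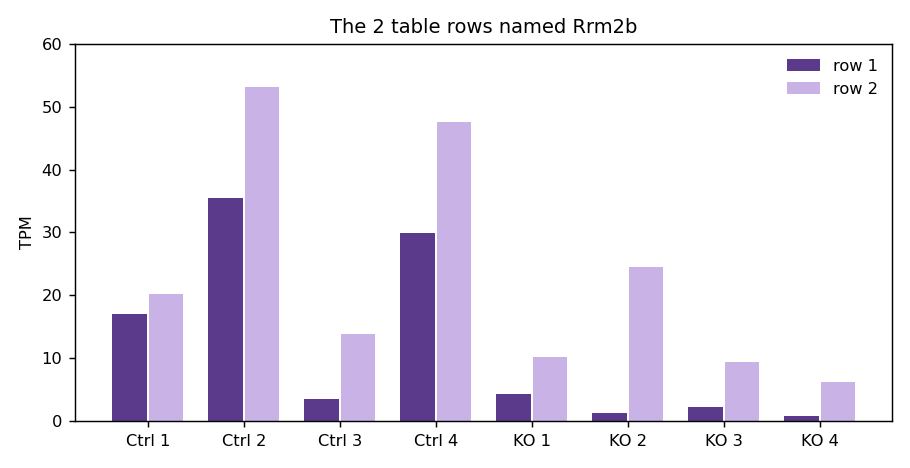
Bars show TPM of the 2 rows named Rrm2b in each of the 8 libraries, row 1 dark and row 2 light. Row 1 is at 0.831 to 4.27 TPM in the KO libraries and at 3.45 to 35.5 TPM in the Ctrl libraries, and row 2 exceeds row 1 in every library.

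On the TPM scale, which is per length, the order of the members' levels differed between the groups. By the group median the Ctrl order was Rrm2b (57.4 TPM), Helq (20.5), Brca1 (11.7), Dna2 (0.122) and Brca2 (0). Of the neighbours in this order, Brca1 and Dna2 were apart in all Ctrl libraries, while the ranges of Rrm2b and Helq, of Helq and Brca1, and of Dna2 and Brca2 overlapped. In KO the order was Rrm2b (13.0 TPM), Brca1 (5.55), Dna2 (3.48), Brca2 (1.70) and Helq (0.858), and every pair of neighbours overlapped in range. By the medians Helq stood second in Ctrl and last in KO. Library by library, Helq was above Brca1 in 4 of 4 Ctrl libraries, Rrm2b was above Helq in 2 of 4 Ctrl libraries, and Brca2 was above Helq in 2 of 4 KO libraries.

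**Figure D3:**
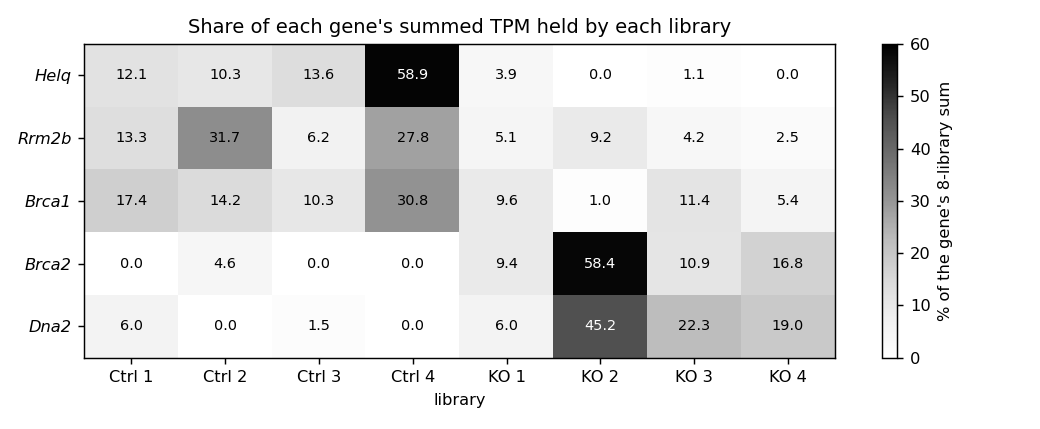
Each cell gives the percentage of a member's TPM, summed over the 8 libraries, that 1 library holds, so each line adds up to the whole. Ctrl library 4 holds 58.9% of Helq, and KO library 2 holds 58.4% of Brca2 and 45.2% of Dna2.

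How alike profiles are was measured as the percentage points by which the shares of the 8 libraries would have to be moved to turn one gene's profile into the other's, so a smaller value means more alike. Brca2 and Dna2 were 21.2 points apart and Brca1 and Rrm2b 25.7 points apart, while Helq was 31.5 points from Brca1 and 90.4 points from Brca2. These distances describe 8 libraries in 2 groups, and genes that differ between the groups in 1 direction are alike for that reason. Outside the members, the genes nearest to Helq were Swap70 (9.71 points), Gtf3c1 (11.1) and Pik3r4 (12.0). Nearest to Dna2 were Epb41l5 (5.63), Tfap2c (8.09) and Dhx30 (9.42), and nearest to Brca2 were Srgn (11.1), Fars2 (12.8) and Rbm38 (13.0). Brca1 was nearest to Wdr48 (5.45), Ckap5 (5.78) and Morc3 (7.41), and Rrm2b to Ttc4 (8.46), Snx6 (11.3) and Mtmr2 (11.5). Wdr48 is a cofactor of the deubiquitinase Usp1, which acts in crosslink repair, and Ckap5 is a microtubule polymerase of the spindle.

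Beside the members, 18 of the other genes on 10 lists of repair, recombination, helicase, nuclease, nucleotide supply, checkpoint, replication and mitochondrial DNA genes had a row, and 17 passed the filter. Of the 17, 10 fell, 4 rose and 3 did not pass. Under median-of-ratios scaling, and likewise under quantile normalization, 5 rose and 3 fell, so the balance of directions depended on the scaling. These shares, 58.8% lower and 23.5% higher, stand beside 57.2% and 36.6% of all genes tested, and the median log2 difference of -1.05 equals that of all genes at this precision. None of the 38 genes of the meiotic recombination list had a row. Of the 339 genes on all the lists together, members included, only 23 had one, and a missing row does not give a gene's level. Of the 14 calls, 5 held under every alternative that gave a value, among them those of Ercc5, Rfc4, Shprh and Trp53bp1, and 9 were lost under at least 1. Shprh reached the filter through the KO libraries alone, and Ercc5, Rfc4 and Atrx through the Ctrl libraries alone.

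**Figure D4:**
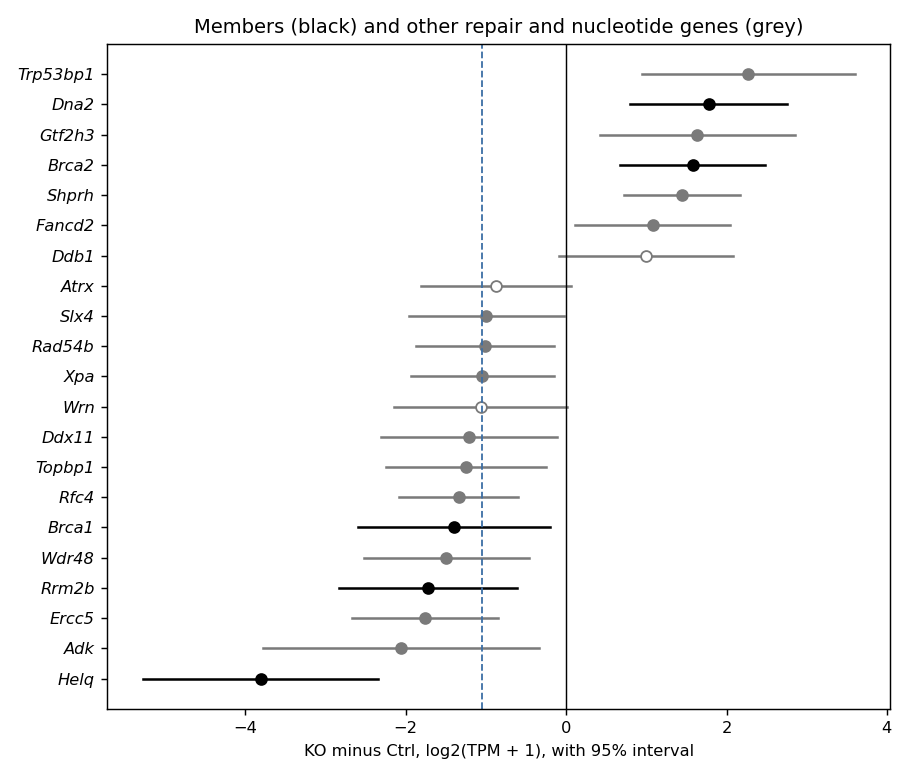
Points are the difference KO minus Ctrl in log2(TPM + 1) with its 95% interval from limma, for the 5 members in black and 16 other listed genes in grey; open points did not pass the adjusted p threshold of 0.05. The dashed line marks the median of all 402 genes at -1.05. Helq lies farthest to the left at -3.81, and Dna2 and Brca2 lie among the risers at 1.78 and 1.58.

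In homologous recombination, the genes beside Brca1 and Brca2 were Rad54b, Slx4 and Atrx. Rad54b, a motor protein that moves along DNA, had a Ctrl mean of 22.2 ± 7.88 TPM (SD, n = 4) and a KO mean of 10.03 ± 1.92 TPM (SD, n = 4) (log2 difference -1.01, SE 0.40, adjusted p = 0.0309 by limma). Its call was lost without any 1 of Ctrl libraries 1, 2 and 4 and KO libraries 1, 2 and 4 (adjusted p from 0.0538 to 0.0751). Under median-of-ratios scaling the Rad54b log2 difference was -0.25 (adjusted p = 0.393), and under quantile normalization -0.66 (0.0794). Slx4, a scaffold for nucleases that cut joined DNA molecules, fell by 0.995 on the log2 scale (adjusted p = 0.0482 by limma), a call lost without any 1 of Ctrl libraries 2 and 4 or of the 4 KO libraries (0.0574 to 0.127). Slx4 did not pass either with median-of-ratios scaling (-0.47, adjusted p = 0.242), quantile normalization (-0.71, 0.093), array weights (-0.61, 0.151) or a pseudocount of 0.1 (-1.45, 0.0746). With the replicate number as a block it also missed the threshold (adjusted p = 0.0916 by limma). Atrx, a chromatin remodeller, did not pass (log2 difference -0.88, adjusted p = 0.0662 by limma), and passed as lower without Ctrl library 1 (0.0372) or Ctrl library 3 (0.0476).

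Among the crosslink repair genes beside Helq, Wdr48 fell and Shprh and Fancd2 rose. Wdr48 ranged from 11.5 to 32.4 TPM over the Ctrl libraries and from 2.83 to 10.9 TPM over the KO libraries, with no overlap (log2 difference -1.49, SE 0.48, adjusted p = 0.018 by limma), and its call did not hold with median-of-ratios scaling (adjusted p = 0.102) and quantile normalization (0.0522). Shprh, a ubiquitin ligase acting on the replication clamp, was listed at 0 in 3 Ctrl libraries and at 0.763 TPM in Ctrl library 3, and stood at 1.49 to 2.92 TPM in KO (log2 difference 1.45, SE 0.34, adjusted p = 0.00671 by limma). Fancd2, the protein that is ubiquitinated at crosslinks, ranged from 2.39 to 7.83 TPM over the Ctrl libraries and from 7.71 to 14.4 TPM over the KO libraries (log2 difference 1.08, SE 0.45, adjusted p = 0.0365 by limma). The Fancd2 call was lost without any 1 of Ctrl libraries 1, 2 and 3 and KO libraries 2, 3 and 4 (adjusted p from 0.0544 to 0.102). The helicase Ddx11 fell by 1.21 on the log2 scale (adjusted p = 0.038 by limma), a call lost without any 1 of Ctrl libraries 2 and 4 and KO libraries 1, 2 and 4 (0.0564 to 0.122). Ddx11 did not pass either with median-of-ratios scaling (-0.51, adjusted p = 0.233), quantile normalization (-0.80, 0.11) or array weights (-0.65, 0.16). The Werner syndrome helicase Wrn did not pass (log2 difference -1.06, adjusted p = 0.0551 by limma), and passed as lower without Ctrl library 3 (0.0396) or KO library 3 (0.0409) and with eBayes without trend (0.0388).

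Among the nucleotide supply genes beside Rrm2b, Adk fell, and Samhd1 did not reach the filter. Adk, which phosphorylates adenosine, stood at 2.98 to 14.9 TPM in Ctrl, at 13.9 TPM in KO library 4 and at or near 0 in the other KO libraries (adjusted p = 0.03 by limma). The Adk call was lost without any 1 of Ctrl libraries 1 and 2 and KO libraries 1, 2 and 3 (adjusted p from 0.058 to 0.0814), and under both scalings, array weights and a pseudocount of 5 (0.0759 to 0.169). Samhd1, which breaks down deoxynucleotides, ranged from 0.621 to 2.58 TPM over the Ctrl libraries and from 0 to 0.758 TPM over the KO libraries and was not tested.

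In excision repair, checkpoint and replication, the largest rise was that of Trp53bp1, which shields broken ends from being cut back and so acts against Brca1. It stood at 3.14, 0.739, 8.92 and 13.4 TPM in Ctrl libraries 1 to 4 and at 10.7, 33.6, 38.4 and 34.3 TPM in KO libraries 1 to 4 (log2 difference 2.27, SE 0.62, adjusted p = 0.0124 by limma). KO library 1 lay within the Ctrl range and the other KO libraries above it. Gtf2h3, a subunit of the repair and transcription factor TFIIH, ranged from 3.02 to 30.7 TPM over the Ctrl libraries and from 31.5 to 84.6 TPM over the KO libraries (adjusted p = 0.0218 by limma), a call lost without Ctrl library 4 (0.0588) or KO library 2 (0.0629) and with array weights (0.0902). The excision nuclease Ercc5 ranged from 3.11 to 7.33 TPM over the Ctrl libraries and from 0 to 0.869 TPM over the KO libraries (log2 difference -1.76, SE 0.43, adjusted p = 0.00772 by limma). Rfc4, part of the clamp loader, ranged from 1.61 to 2.86 TPM over the Ctrl libraries and from 0 to 0.625 TPM over the KO libraries (adjusted p = 0.0103 by limma). Topbp1, an activator of the Atr kinase, fell by 1.25 on the log2 scale (adjusted p = 0.0264 by limma), a call lost without Ctrl library 2, Ctrl library 4 or KO library 2 (0.0574 to 0.0723), under median-of-ratios scaling (-0.74, adjusted p = 0.133) and under quantile normalization (-0.98, 0.053). Xpa, which binds damaged DNA, fell by 1.05 (adjusted p = 0.0309 by limma), a call lost without any 1 of Ctrl libraries 1, 2 and 4 and KO libraries 1 and 2 (0.0533 to 0.0854). Under median-of-ratios scaling the Xpa log2 difference was -0.29 (adjusted p = 0.345), and under quantile normalization -0.70 (0.119). Ddb1, part of a damage sensing ubiquitin ligase, did not pass (from 0.564 to 3.66 TPM over the Ctrl libraries and from 2.62 to 9.08 TPM over the KO libraries, adjusted p = 0.07 by limma). Ddb1 did pass, higher in KO, with array weights (1.16, adjusted p = 0.0328), quantile normalization (1.29, 0.0258) and median-of-ratios scaling (1.51, 0.0205), and without Ctrl library 4 (1.29, 0.048).

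The 2 members that rose, Brca2 and Dna2, are shown with 100 bases before their start from RefSeq (GRCm38.p6), where 4 of the 5 members matched by symbol and Rrm2b did not. The Brca2 stretch ends right before that start, and the Dna2 stretch ends 3 bases short of it, since an annotated GENCODE exon begins there. The 250 bases before each start were searched on both strands for TGACGTCA (the cyclic AMP response element), CACGTG (an E-box), CGCATGCG (the core of the motif of Nrf1, a regulator of many nuclear genes for mitochondrial proteins) and the E2F-type letters TTTCGCGC, TTTCGCGG and TTTCCCGC. Among 32851 windows of that length TGACGTCA was present in 1.55%, CACGTG in 6.02%, CGCATGCG in 1.55%, any of the E2F-type letters in 1.36% and TTTCCCGC in 0.895%. Brca2 held TGACGTCA starting 20 bases before the start and TTTCCCGC, on the other strand, at 168 bases. Dna2 held CGCATGCG starting 12 bases before the RefSeq start. None of these letters was in the windows of Helq and Brca1. The matches, in capitals, describe the letters only, and no binding was measured.
Brca2, chr5:150522521-150522620, plus strand: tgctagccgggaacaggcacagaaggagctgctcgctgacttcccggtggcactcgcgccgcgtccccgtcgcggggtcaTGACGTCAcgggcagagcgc
Dna2, chr10:62946926-62947025, plus strand: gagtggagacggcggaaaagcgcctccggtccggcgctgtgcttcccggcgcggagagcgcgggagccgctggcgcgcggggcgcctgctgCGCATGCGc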

How the data were processed

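The 8 libraries were grouped by their titles, 4 Ctrl and 4 KO. The values are TPM as deposited by the authors. The submitters' processing notes name the tools kallisto 0.46.2 and sleuth 0.30.1 and the build GRCm38, and the annotation release and the choice of rows were not given in those notes. TPM hold no read depth, which is unknown. Every pair of libraries differed in at least 443 rows. TPM of rows with the same gene name were added up, and the 402 genes averaging 1 TPM or more were kept. log2(TPM + 1) was fitted with limma 3.58.1 in R 4.3.3 (eBayes with trend, two-sided), adjusted by Benjamini-Hochberg over all 402 genes, threshold 0.05; Python 3.11.15 was used for the rest. Fold changes on this scale understate changes of low genes, and a 0 can be a failed estimate. The fit was tested on simulated normal values with known changes in a part of the genes. The deposited rows hold zeros and all differ in group mean, so that test does not carry over to them. The members and lists were chosen with earlier results of these data known. Named genes are the members, every gene of the 10 lists with a row (1 is counted but not reported here), and the 3 nearest profiles of each member. Copies were searched with megablast at 95% identity over 200 bases. Alternatives were other pseudocounts (0.1, 5), filters (none, 5 TPM), scalings, eBayes options, array weights, a replicate block, unsummed rows, leaving out mitochondrially encoded genes, and each library left out.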

Additional observations from a re-analysis of the deposited data

Results flagged for a closer look

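Of the 46 groups of 4 libraries examined, for the members and the other listed genes, 2 had 3 libraries listed at 0, so that any value in the remaining library passes Dixon's 95% limit whatever its size. Of the other 44 groups, 5 held 1 library far from the rest in TPM by that limit. For independent, normally spread values chance gives about 1 in 20. These groups share the same libraries and the spread of TPM was not checked, so the 5 of 44 cannot be judged against that rate. Among the members the flagged groups were Helq in Ctrl library 4 (94.0 TPM) and Brca2 in KO library 2 (7.17 TPM). Among the other genes they were Adk in KO library 4 (13.9 TPM), Atrx in Ctrl library 4 (5.71 TPM) and Gtf2h3 in KO library 2 (84.6 TPM). Ctrl library 4 and KO library 2 each account for 2 of the 5. The groups with 3 libraries at 0 were Brca2 in Ctrl, with 0.565 TPM in library 2, and Shprh in Ctrl, with 0.763 TPM in library 3.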

How the results depend on the processing

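Helq, Brca2 and Dna2 kept direction and call under every alternative that gave a value. Brca2 and Dna2 gave none under the 5 TPM filter. Brca2 and Dna2 reached the main filter through the KO libraries alone, and all listed rows already differ. A call that is kept here therefore gives no independent evidence. No member or listed gene reversed. With median-of-ratios scaling the Rrm2b call did not hold (log2 difference -0.94). That of Brca1 was lost there (-0.75), under quantile normalization (-0.96) and without Ctrl library 4 and KO library 2 together (-0.62), a setting chosen after seeing the data. With each library left out in turn Brca1 ran from -1.70 to -0.89. Both scalings were computed from listed rows alone, which were picked for their difference. Of all genes, 213 of 230 passed with the 5 TPM filter (fewer genes tested), 197 under median-of-ratios scaling, 240 under quantile normalization, 118 without Ctrl library 4 and KO library 2 (fewer samples), and 188 to 358 with 1 library left out, against 377. Of the 17 other listed genes, 8 passed under each scaling, 5 without those 2 libraries and 6 to 15 with 1 library left out, against 14. With the 5 TPM filter 9 of them were tested and 8 passed. With the replicate number as a block 279 genes and 8 of the 17 passed, and all 5 members did. Under this block the calls of Slx4, Rad54b, Ddx11, Fancd2, Xpa and Topbp1 were lost (adjusted p from 0.0502 to 0.0951 by limma). Deviations from the group mean had correlations of -0.26, -0.20, -0.17 and 0.07 between same-numbered libraries. Those of differently numbered libraries ran from -0.38 to 0.33, so these values cannot show whether the numbers pair the samples. Where no construction is named, the cause was not tested. TPM keep no depth, so what depth limits is unknown.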
